A study of Oncorhynchus mykiss with 6 samples.

Results

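Among the miRNAs counted in dorsal skin of rainbow trout (Oncorhynchus mykiss), 83 entries carry a known name with a number of 7000 or higher. They were chosen by name alone, as entries written miR-, a number and a final x, y or z, and they cover 73 numbers. The whole table lists 1939 mature miRNAs, of which 704 have a numbered miR- name and 1230 are predicted. The groups are WR, wild-type fish with black skin, and YR, a yellow mutant with yellow skin, each with 3 small RNA libraries. All fish were sampled at 45 days, and the labels name neither the mutated gene nor whether fish were pooled. Because separate fish are not stated for the replicates either, each p-value below reflects spread among libraries that could be technical. The comparison asks which miRNAs change in level with skin colour. In whole skin, fewer cells of a type and less RNA per cell cannot be told apart.

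miRNA genes are numbered in the order in which they were reported to the registry, so high numbers stand for late discoveries, many of them seen in few lineages. The enzyme Dicer cuts a hairpin precursor into a 5p and a 3p strand, and the strand loaded into an Argonaute protein finds its targets mainly through bases 2 to 8, the seed. Late catalogues also took in sequences that lie close to older miRNAs or to fragments of other RNAs. Mature transfer RNAs all end in CCA, and their 3′ fragments are common in small RNA libraries.

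Library totals ran from 8245698 to 10336991 counts. Markers of the labelled tissue were abundant: the 14 epidermal entries (miR-203, miR-205, miR-200, miR-141 and miR-429) summed to 84310 to 89180 TPM in WR and 66930 to 79250 TPM in YR, and the 8 dermal entries (miR-199, miR-214 and miR-140) to 303900 to 329100 and 305700 to 384500 TPM. Of these markers only miR-199-y passed, higher in YR (log2 fold change 0.73; edgeR adjusted p = 0.0341). Skeletal muscle entries (9) summed to 17320 to 22070 and 13010 to 24430 TPM, and neural entries (8) to 108.0 to 113.5 and 137.3 to 261.3 TPM, with none passing. One WR library stands apart. WR replicate 1 held 4686 TPM under 65 names that belong, in placental mammals, to an imprinted cluster, against 83.5 to 145 TPM in the other 5 libraries. Fold changes of entries read mainly in that library are given with and without it.

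The sequences that carry the results fall into 3 kinds. The first are the entries that passed the test, both strands of miR-7132 and miR-9404, and the main strand of miR-8160. They are shown with the seed in capitals (T stands for U, as in the deposited table).
miR-8159-x: tCAGTAACtggaatctgtccct
miR-11213-x: tATGAACCttgcactggaaga
miR-7132-x: gACTTGGTctaagctcctcagc
miR-7132-y: tGAGGCGTttagaacaagatca
miR-9404-x: gCGTCTCAgaggtcaaacacagt
miR-9404-y: tGTGTTAGgcctccgagtctg
miR-8160-x: aGAATAATgccagcagtcggcc
The kinds overlap, since miR-8159-x in the first and miR-7550-z in the third also share a seed with a lower-numbered name. The second kind repeats the seed of an older family, and each is set beside that family's most abundant entry.
miR-10174-y: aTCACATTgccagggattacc
miR-23-y: aTCACATTgccagggatttcc
miR-9985-z: tTCACAGTggctaagttatg
miR-27-y: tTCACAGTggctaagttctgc
miR-11977-z: tGGCTCAGttcagcaggaag
miR-24-y: tGGCTCAGttcagcaggaac
The third kind ends in CCA, here in capitals.
miR-7977-z: ttcccggccaatgcaCCA
miR-7911-x: ctcccggccaatgcaCCA
miR-9993-y: atctcggtaggacctCCA
miR-9995-y: atctcggtagaacctCCA
miR-7550-z: atccggctcgaaggaCCA
miR-9226-x: tcaggtccctgttcgggcgCCA

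As a set the 83 entries were scarce and short. Their median level was 0.478 TPM, against 3.10 TPM for the 621 entries with numbers below 7000 and 5.25 TPM for the 504 whose numbers have at most 3 digits. The mean over the 6 libraries reached 100 TPM in 6 entries, 10 to 100 TPM in 9 and 1 to 10 TPM in 22. These 37 entries were tested between groups, and the other 46, with 4 to 50 reads in all libraries together, were not. The filter used the mean over both groups, so an entry high in 1 group passed more easily than one low in both.

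Length set many of them apart from older names. Of the 83, 29 were listed at 18 bases, which is 34.9%, against 37 of 621 (5.96%) below 7000 and 8 of 1230 (0.65%) among predicted entries. Their median length was 20 bases, against 22 for the other known names. The suffix z, which states no arm, was borne by 36 of them (43.4%, against 24.3% below 7000), x by 30 and y by 17. The 76 highest-numbered names below the threshold also had a median of 20 bases, with 28.9% at 18 bases, 51.3% with the suffix z and a median level of 0.258 TPM. At the number threshold itself, the nearest names below it were miR-6990-x with 4 reads and miR-6944-y with 5, and the nearest above it were miR-7068-y with 4 and miR-7132-x with 28330.

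All 83 together took 0.656%, 0.493% and 0.429% of the counts in black skin, and 0.429%, 0.416% and 0.382% of those in yellow skin. The groups thus met at the lowest WR and the highest YR library. The means were 0.526% ± 0.117 and 0.409% ± 0.0246 (SD, n = 3 each), and no test is given for a sum over the set. A single entry, miR-10174-y, supplied most of these counts in each library except WR replicate 1, where it supplied 26444 of 56774. Its mean was 3236 ± 166 TPM for WR against 3082 ± 78.4 TPM for YR.

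Yellow skin had lower levels of 2 of the 37 tested entries, miR-8159-x and miR-11213-x, and of none was the level higher at this threshold. That is 5.41% of those tested, beside 5.28% of all 834 tested miRNAs called in either direction, 3.12% lower and 2.16% higher. As listed, the set is therefore called about as often as the table, a likeness that rests on 2 calls. The table's calls lay mainly among predicted entries, with 34 of 406 tested, against 8 of the 388 tested names below 7000. An edgeR quasi-likelihood test over the whole table with an adjusted p of 0.05 set these calls. With 1 entry per distinct sequence it called 21 of 691 entries, the same 2 late ones among them. Of the 37, 24 had negative and 13 positive log2 fold changes, against 427 negative and 407 positive over the table. An unadjusted p under 0.05 was reached by 6 of them (16.2%), against 21.7% of all tested. The median log2 fold change was -0.43, against -0.03 for all tested miRNAs. Without WR replicate 1 that median was -0.05, against -0.02 for all, with 19 negative and 18 positive values.

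miR-8159-x was read 51, 52 and 32 times in black skin but only 4, 1 and 3 times in yellow skin. Every WR library stood at least at 3.62 TPM and every YR library at or below 0.411 TPM, so the groups did not overlap. The group means were 5.26 ± 1.43 and 0.280 ± 0.143 TPM (SD, n = 3 each), and the level fell by 3.89 on the log2 scale (SE 0.415; edgeR adjusted p = 0.00981). Relative to the total counts of each group, 135 reads against 8 place the ratio between 8.88 and 42.5. This 95% exact binomial interval covers counting error only. With so few reads in YR the size of the change is known only roughly. Its mean of 2.77 TPM over all libraries passed the filter only through WR. With no filter its edgeR adjusted p was 0.011. The fall lost the call without WR replicate 2, YR replicate 1 or YR replicate 3 (edgeR adjusted p = 0.0598, 0.0533 and 0.0515), while its log2 fold change stayed between -4.15 and -3.60 with any 1 library left out. The authors' deposited table gives it an adjusted p of 1.83e-05.

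The seed of miR-8159-x recurs in 1 other entry of the table, miR-459-x, whose first 8 bases are the same. That entry had 5, 6 and 9 reads in black skin, then 3, 2 and 4 in yellow skin, and lay under the filter. Its YR libraries were all below its WR libraries, which also held for 19.7% of the 834 tested miRNAs. The main test did not include miR-459-x. The known entries most like miR-8159-x over the 6 libraries, by Pearson's r of log2(TPM + 1), were miR-15-y (0.983), miR-730-x (0.963) and miR-730-y (0.961). These 6 points fall into 2 groups, so the values are given as a description.

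miR-11213-x was the more abundant of the pair that fell. Its counts were 319, 336 and 276 for WR against 83, 78 and 48 for YR, or 38.8, 38.5 and 31.2 TPM against 8.53, 9.90 and 4.83 TPM. No YR library came near the lowest WR library. The mean went from 36.2 ± 4.30 to 7.75 ± 2.62 TPM (SD, n = 3 each), and edgeR gave a log2 fold change of -2.00 (SE 0.277; adjusted p = 0.0201), a 3.99-fold fall once libraries were scaled. With the total counts of each group as the scale instead, the ratio of 931 reads to 209 was 4.75. Its 95% exact binomial interval, 4.09 to 5.55, covers counting error only and leaves out the spread among libraries. Leaving out WR replicate 2, WR replicate 3, YR replicate 1 or YR replicate 3 lost the call (edgeR adjusted p from 0.0515 to 0.0923), with log2 fold changes of -2.23 to -1.79 over all 6 omissions. No other entry shares its seed.

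The known entries most like miR-11213-x were miR-200-x (r = 0.996), miR-146-y (0.991) and miR-122-x (0.98), over the 6 libraries. Here too the points fall into 2 groups, so the values are a description. miR-122, the main miRNA of liver, was the single liver marker examined. Its WR libraries held 51.8, 38.8 and 41.4 TPM and its YR libraries 12.9, 9.27 and 5.33 TPM (log2 fold change -2.05; edgeR adjusted p = 0.0201). The TPM sums of the epidermal markers, lower in YR, and of the neural markers, higher in YR, also did not overlap between groups. These sums carry no TMM scaling, whose factors ran from 0.9875 to 1.194 in WR and from 0.8407 to 1.02 in YR. Whether the sums stay apart with that scaling was not examined. Single epidermal entries went both ways after TMM scaling, with log2 fold changes from -0.64 for miR-203-z to 0.42 for miR-205-y. The most abundant, miR-205-x, overlapped between groups (log2 fold change 0.17). The part of liver RNA, or of these other tissues, in the falls of miR-11213-x and miR-8159-x was not tested. miR-200, an epithelial family, had means for its x entry of 649 ± 13.5 and 465 ± 29.4 TPM (SD, n = 3 each; edgeR adjusted p = 0.291).

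**Figure D1:**
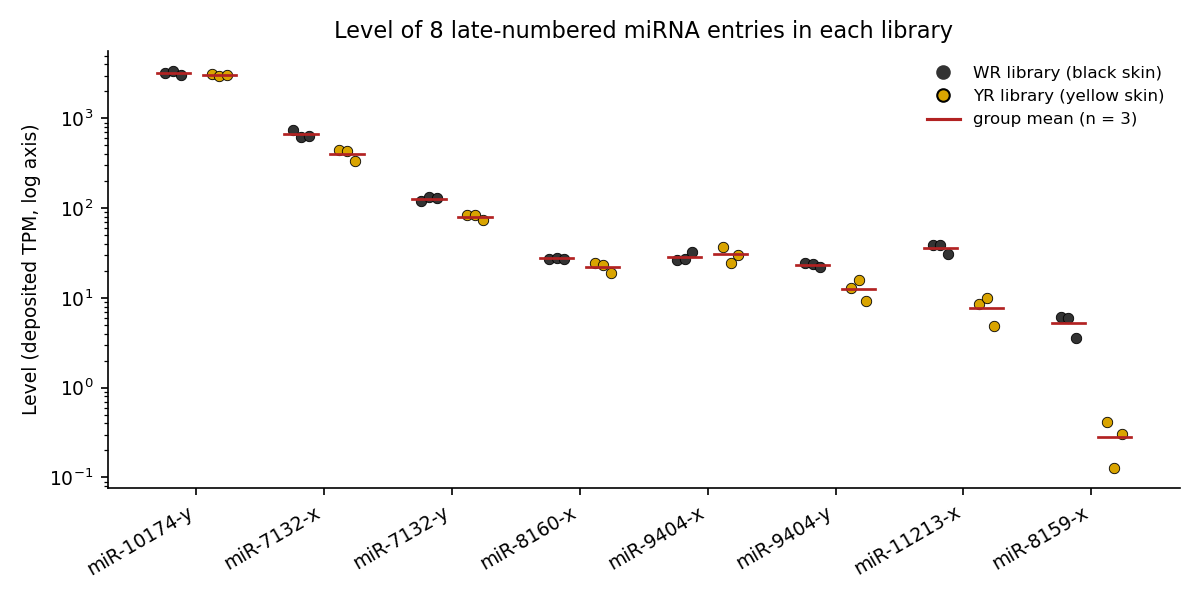
Deposited TPM (log axis) of 8 late-numbered entries in each of the 3 WR and 3 YR libraries, with the group mean as a line. miR-8159-x and miR-11213-x have all YR libraries far below all WR libraries, miR-7132-x, miR-7132-y, miR-8160-x and miR-9404-y have them lower by less, and the groups overlap in miR-10174-y and miR-9404-x.

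In 7 of the 37 tested entries the groups did not overlap, each time with YR lower, which is 18.9% of them. Over all 834 tested miRNAs 28.3% had no overlap, 19.7% with YR lower and 8.63% with YR higher. The share of late numbers without overlap and lower in YR is thus close to that of the table. Beside the 2 that fell these were miR-7132-x, miR-7132-y, miR-8160-x, miR-9404-y and miR-10955-z, none of which passed the edgeR threshold. With means of 3.71 TPM in WR and 0.543 TPM in YR, miR-10955-z entered the test only through WR, as did miR-8159-x. The highest positive value belonged to miR-7552-x, at a log2 fold change of 1.10 (SE 1.07; edgeR adjusted p = 0.528) with 0, 9 and 16 WR reads and 30, 5 and 18 YR reads, and at 0.40 without WR replicate 1.

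**Figure D2:**
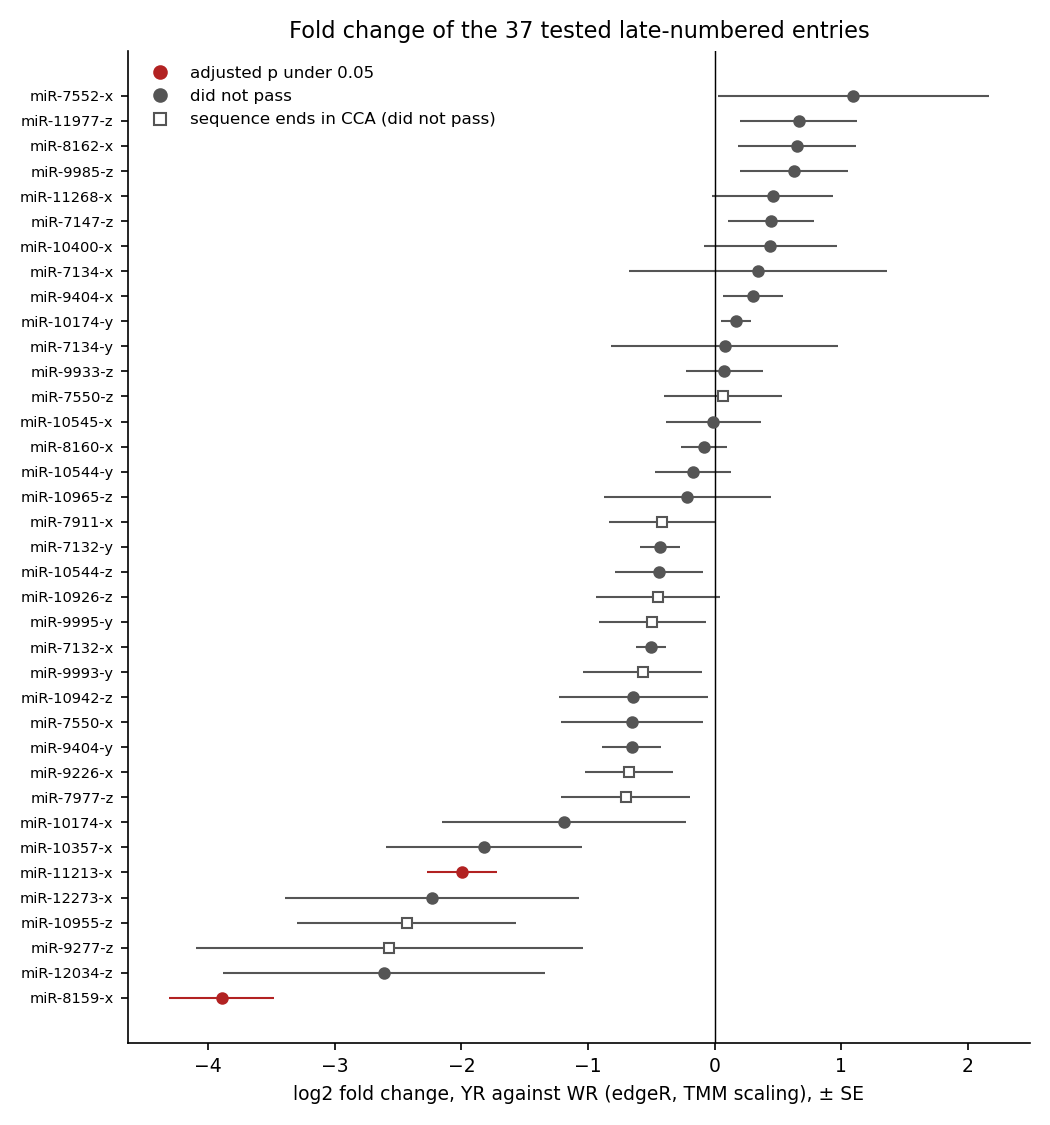
Log2 fold change of YR against WR with its SE for each of the 37 tested entries, from edgeR with TMM scaling. The 2 entries with an adjusted p under 0.05, miR-11213-x and miR-8159-x, are at -2.00 and -3.89, and open squares mark the 9 entries whose sequence ends in CCA.

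miR-7132 was the most abundant late number read well on both strands. Its x strand stood at 748.9, 628.8 and 636.9 TPM for WR, against 446.9, 431.6 and 332.5 TPM for YR. Its y strand stood at 119.8, 132.7 and 129.3 TPM against 84.24, 83.02 and 74.34 TPM. Both strands were lower in each YR library than in any WR library, by less than the fall of miR-11213-x. The log2 fold changes were -0.50 (SE 0.119; edgeR adjusted p = 0.0705) for x and -0.43 (SE 0.159; edgeR adjusted p = 0.192) for y, so neither passed. Without WR replicate 1 both passed, at -0.64 and -0.69 (edgeR adjusted p = 0.0149 and 0.0128). The x strand exceeded the y strand by 5.18-fold in mean TPM, and the log2 ratio of the strands averaged 2.40 ± 0.216 for WR against 2.31 ± 0.135 for YR (SD, n = 3 each).

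miR-9404 was read on both strands at similar levels, and the balance between them did not pass a test of the difference between groups. Its x strand stood at 26.26, 27.06 and 32.91 TPM for WR, against 37.08, 24.63 and 29.98 TPM for YR, with the groups overlapping. Its y strand stood at 24.3, 23.6 and 22.1 TPM against 12.9, 15.7 and 9.26 TPM, with each YR library below all of WR. The fold changes did not pass for either strand (log2 0.30, SE 0.240, edgeR adjusted p = 0.457 for x; log2 -0.66, SE 0.233, edgeR adjusted p = 0.19 for y). The difference between the strands was tested as their log2 ratio. This ratio was 0.11, 0.20 and 0.58 for WR against 1.51, 0.64 and 1.68 for YR without overlap, and its mean differed by 0.99 (exact permutation test, 2-sided, p = 0.1, the smallest p that 3 against 3 allows). Lower-numbered pairs such as miR-15, miR-26, miR-133, miR-181 and miR-734 reached the same p, so it is not particular to miR-9404. Over all 111 pairs with both strands at 1 TPM or more, limma gave miR-9404 a difference of 0.94 (SE 0.295; adjusted p = 0.209), which did not pass. Of the 111 pairs it called 1, the lower-numbered miR-2184 (limma adjusted p = 0.0254). Left out one at a time, the libraries moved the difference between 0.783 and 1.3. A predicted miRNA repeats miR-9404-y with 1 base more at the 3′ end, and had 100, 71 and 65 WR reads beside 107, 52 and 69 YR reads. Its groups overlapped, unlike those of miR-9404-y. The reads of this predicted miRNA are left out of the strand ratio. With them added to the y strand, the ratio of WR replicate 3 lies above that of YR replicate 2. The lack of overlap in the miR-9404 ratio, and its permutation p, thus depend on the entries counted.

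Among late numbers, 7 were listed with both an x and a y entry, namely miR-7132, miR-7134, miR-8160, miR-9404, miR-10174, miR-10544 and miR-10545. When the 2 listed strands were folded against each other with RNAduplex, 13 to 18 base pairs formed, with energies from -26.6 to -14.5 kcal/mol. For the 178 lower-numbered pairs the median was -21.2 kcal/mol with 16 bases paired. The late pairs thus lay within the range of the older ones, -37.8 to -7.6 kcal/mol. The miR-9404 strands paired over 16 bases at -22.3 kcal/mol and those of miR-7132 over 18 at -22.3 kcal/mol. Pairing of 2 listed strands describes their letters and does not show that they come from 1 hairpin.

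Counted by the listed x and y entries alone, the dominant strand was the same in all 6 libraries in each of the 7 pairs. miR-8160 favoured x by 60.4-fold in mean TPM, with miR-8160-x at 27.12, 28.09 and 27.48 TPM for WR against 24.65, 23.10 and 19.01 TPM for YR. Its log2 fold change was only -0.08 after TMM scaling (SE 0.180; edgeR adjusted p = 0.78). miR-10545 favoured x by 19.5-fold, miR-7134 favoured y by 3.84-fold and miR-10544 y by 7.12-fold. Another miR-10544 entry, miR-10544-z, equals the x strand with 2 bases more and was the most abundant of the 3, at 4.85 TPM. Its reads are left out of that ratio. It exceeded miR-10544-y in every library except WR replicate 1, where it had 34 reads against 41. Which strand of miR-10544 dominates thus depends on the entries counted.

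**Figure D3:**
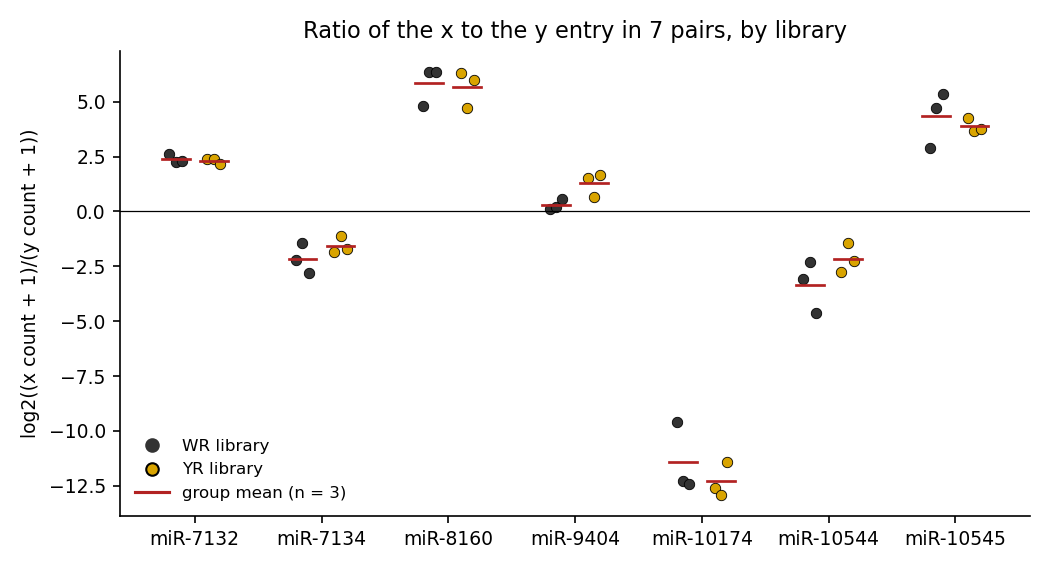
Log2 ratio of x to y counts, with 1 count added to each, for the 7 late numbers listed with both strands, in each WR and YR library and with group means as lines. miR-9404 lies from 0.11 to 0.58 in WR and from 0.64 to 1.68 in YR, and in the other 6 pairs the groups overlap. Reads of the predicted miRNA that repeats miR-9404-y are left out. Groups without overlap also occurred among lower-numbered pairs, which are not shown.

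Of the 83 entries, 11 share their seed with a known entry numbered below 7000 or with let-7, and 60 share it with no other entry at all. Of the 11, 3 carry the seeds of miR-23-y, miR-27-y and miR-24-y, from a cluster that vertebrates transcribe together, and 1, miR-10174-x, carries that of miR-23-x. miR-10174-y, the most abundant late entry, differs from miR-23-y by a single substitution, T19A, with positions counted from 1 at the 5′ end of miR-23-y. It is also identical to the first 21 bases of the 24-base miR-23-z. miR-11977-z differs from miR-24-y by C20G, at the last base, and miR-9985-z shares its first 17 bases with miR-27-y. Reads of such near-identical sequences can be split between names by the counting, so their separate levels are uncertain.

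Levels set miR-10174-y apart from the other 2. Its libraries held 3215, 3411 and 3082 TPM for WR and 3159, 3003 and 3085 TPM for YR, beside 6628 ± 820 and 7262 ± 417 TPM for miR-23-y (SD, n = 3 each). miR-9985-z, in contrast, was listed at 7.45 TPM where miR-27-y stood at 44010 TPM, and miR-11977-z at 2.48 TPM where miR-24-y stood at 3355 TPM, as means over all libraries. None of the 3 passed. Their log2 fold changes were 0.17 for miR-10174-y (SE 0.121), 0.63 for miR-9985-z (SE 0.428) and 0.66 for miR-11977-z (SE 0.464), with edgeR adjusted p of 0.421, 0.398 and 0.41. The sign of miR-10174-y was not stable. Its log2 fold change was 0.10 with median-of-ratios scaling, -0.07 with library totals alone and, with TMM scaling, -0.05 without WR replicate 1. The miR-23, miR-27 and miR-24 entries named above had log2 fold changes of 0.37, 0.17 and 0.34, and did not pass either (edgeR adjusted p = 0.291, 0.369 and 0.291).

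The strand opposite miR-10174-y was nearly absent. miR-10174-x, which shares its seed and 11 first bases with miR-23-x, was 2830-fold lower in mean TPM, with 33 reads in WR replicate 1 and 2 to 10 in each other library. Scarcer entries also follow an older miRNA letter for letter at their start. miR-8549-z shares 18 first bases with let-7-x, a miRNA of developmental timing, and had 6 reads against 1485534. miR-11971-z shares 19 with miR-423-x and had 11 reads against 1179. miR-7565-z, with 6 reads, lies wholly inside miR-3074-x, from its base 5 to its end.

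Of the 83 sequences, 14 end in CCA, which is 16.9%, against 16 of 621 known names below 7000 (2.58%) and 17 of 1230 predicted entries (1.38%). Among the 76 highest-numbered names below 7000 the share was 9.21%, and among the 504 with at most 3 digits 1.19%. Of the 14 late ones, 12 are 18 bases long and the other 2 are 22. The grouping by this ending was made after the table was seen. Whether these entries derive from transfer RNA was not tested, since neither a genome nor a set of transfer RNAs was used. Several differ from each other by a single base: miR-7911-x from miR-7977-z by T1C, miR-9995-y from miR-9993-y by G11A and miR-11202-x from miR-7550-z by A1T. miR-7550-z has the same listed sequence as miR-2779-z, yet their levels differ, at 52.3 and 81.5 TPM over all libraries, so the same listed letters carry different counts.

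Levels of the CCA entries spread widely among the libraries of a group, and no tested entry passed between groups. miR-7977-z, the most abundant, had 10341, 4333 and 2513 reads for WR and 3890, 3409 and 1988 for YR, with means of 679.5 ± 512 and 344.1 ± 126 TPM (SD, n = 3 each). WR replicate 1 was the highest and YR replicate 3 the lowest, and the groups overlapped. Its log2 fold change was -0.70 with all libraries and -0.16 without WR replicate 1. miR-9993-y followed the same order, at 274.7, 131.4 and 64.1 TPM against 100.9, 105.2 and 55.3 TPM, with log2 fold changes of -0.57 and, without WR replicate 1, -0.14. miR-9226-x stood at 78.6, 38.5 and 28.8 TPM against 28.7, 29.1 and 18.3 TPM, with -0.67 and -0.40.

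Of the 14, 9 were tested, and 0 passed by edgeR or DESeq2 (edgeR adjusted p from 0.19 to 0.937; 1, miR-10955-z, had an unadjusted p under 0.05). WR replicate 1 was the highest library in all 9 and WR replicate 3 the lowest of its group in all 9, and YR replicate 3 was the lowest of its group in 8. Over the table, WR replicate 1 was the highest library in 24 of 31 tested entries ending in CCA and in 294 of the 803 others. The 36 pairs among the 9 correlated with a median Pearson's r of 0.913 on log2(TPM + 1) over the 6 libraries, against 0.356 among the other 28 tested late entries. All of these values come from the same 6 libraries and only describe how alike the profiles were. Their median log2 fold change was -0.57 with all libraries and -0.14 without WR replicate 1, where 6 were negative and 3 positive.

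Sums over CCA entries with other names had the same highest and lowest library. The 14 late entries summed to 1824, 765.7 and 428.3 TPM for WR, against 624.6, 668.2 and 329.9 TPM for YR. The 16 lower-numbered known entries summed to 6334, 3129 and 1864 TPM against 2101, 2125 and 1366 TPM, and the 17 predicted ones to 236.5, 106.5 and 58.7 against 110.2, 92.2 and 52.5 TPM. In each of the 3 sets WR replicate 1 was the highest library and YR replicate 3 the lowest. Such sums lean on abundant entries, since miR-7977-z alone held 1257 of the 1824 TPM. Not every entry followed: miR-7975-z, below the filter, had 2, 0 and 1 WR reads and 7, 4 and 4 YR reads. RNA quality is not recorded in the files, and its part in these differences was not tested.

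**Figure D4:**
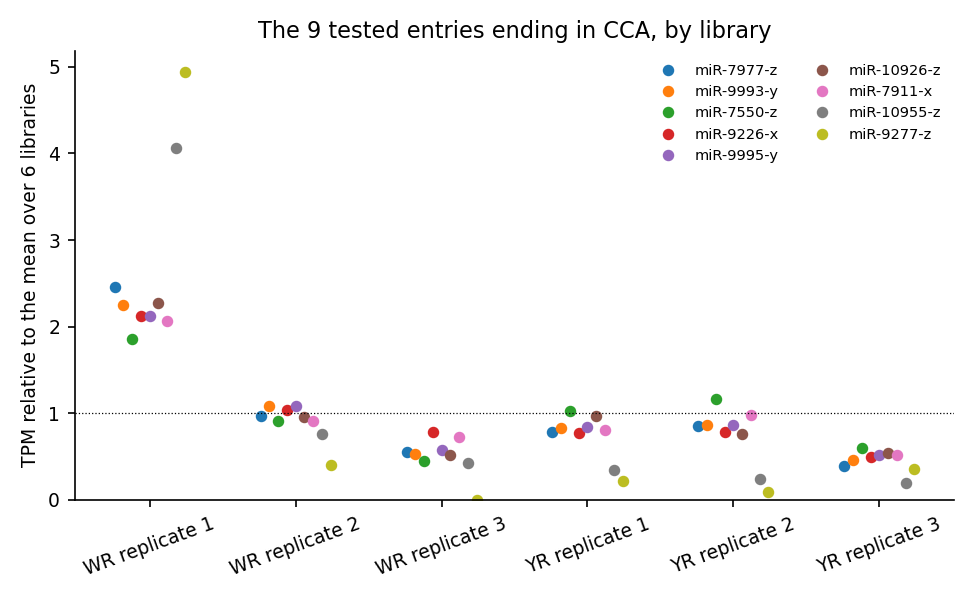
TPM of the 9 tested entries ending in CCA, divided by each entry's mean over the 6 libraries (dotted line at 1), in the 3 WR and 3 YR libraries. All 9 are highest in WR replicate 1, where miR-9277-z reaches 4.94 times and miR-10955-z 4.06 times its mean.

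A further group was read mainly in WR replicate 1. That library held more than 50% of the reads of 19 of the 83 entries, though it held 15.5% of all counts. That is 22.9% of them, against 11.6% of the whole table, and 6 of the 19 had 10 or fewer reads in all. Of the 19, 6 were tested, 16.2% of the 37, where 82 of all 834 tested entries (9.83%) were so concentrated, 40 of them imprinted-cluster names. miR-12034-z had 5314 reads there and 161 to 318 in each other library, and miR-12273-x had 851 and 39 to 66. Their listed sequences are 94.4% and 100% G and C. Over all 19 the median was 60.0%, from 35.0% to 100%, against 54.5% in the other 64 late entries. Neither passed, with log2 fold changes of -2.61 (SE 1.27) and -2.23 (SE 1.16; edgeR adjusted p = 0.271 and 0.291), and without WR replicate 1 the values were 0.21 and 0.19. miR-9277-z, miR-10174-x, miR-10955-z and miR-10357-x, at 56.0% to 80.6% of their reads, had log2 fold changes of -2.57, -1.19, -2.43 and -1.82 and did not pass. Without WR replicate 1 these were 0.21, 0.19, -1.16 and -0.86, and again none passed. The known entries most like miR-12034-z over the 6 libraries were miR-409-x (r = 0.999), miR-872-x (0.999) and miR-381-y (0.998), of which miR-409 and miR-381 belong to the imprinted cluster. With 80.6% of the reads of miR-12034-z in WR replicate 1, these r values rest mainly on that library and are given as a description. The part of that library's other RNA in these values was not tested.

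Scarce entries gave few differences. Of the 46 that were not tested, 25 had fewer than 10 reads over all 6 libraries and 43 had no read in at least 1 library. miR-9343-z had 1, 0 and 0 reads in black skin but 13, 11 and 4 in yellow skin. Relative to the total counts of each group, its ratio of YR to WR was 26.2. The 95% exact binomial interval, 4.34 to 1070, covers counting error only. With every entry of the table tested and no filter, 1.91% were called, and miR-9343-z missed the threshold (edgeR adjusted p = 0.0613). The authors' deposited table gives it an adjusted p of 0.00614. miR-12321-y, with an adjusted p of 0.0339 in the authors' deposited table, had 48 of its 49 reads in WR replicate 1 and the other in WR replicate 2. With miR-8159-x and miR-11213-x, these are the 4 late entries under 0.05 in the authors' deposited table, 4.82% of the 83, where 4.95% of all entries are.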

How the data were processed

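Small RNA was counted in 3 WR and 3 YR libraries of dorsal skin. The authors deposited a whole-number count of reads per miRNA and library, used here as it stands. The deposited TPM is treated as a score, since a library sums to 1039894 to 1052569; from the values, 1 read is worth 0.101 to 0.127 TPM. A count of 0, deposited as 0.01 TPM, was set to 0. The test behind the authors' deposited log2 fold change and p-value columns, like the aligner, database, build and treatment of reads with several matches, was not given in the sources used here. Members and lists were chosen with earlier results of these data known. All members could be named, with entries of the same sequence or seed, the 3 known entries most like each tested member, markers, and neighbours of the number threshold.

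Counts of the 834 entries averaging 1 TPM or more were tested for YR against WR with edgeR 4.0.16 (R 4.3.3): TMM scaling, quasi-likelihood test, Benjamini-Hochberg adjustment over all 834, threshold 0.05. SE is the size of the log2 fold change divided by the square root of F. Ratios of mean TPM differ from TMM-scaled fold changes. Strand ratios were compared with limma 3.58.1 on log2 of the ratio of TPM + 1, and strands paired with ViennaRNA 2.7.2; DESeq2 1.42.0 and limma served as alternatives. On simulated counts with 200 of 834 entries changed, the edgeR fit called 5% of 2-fold and 42% of 4-fold changes. Of its calls, 4.08% were false. Entries that did not pass may therefore still differ between groups by such sizes. The strand fit was also run on simulated ratios, with shifts far larger than the spread among WR libraries. That run does not show how often smaller differences would be called. A permutation test planned for the summed share is not given. Replicates differed by more than sampling noise (chi-square per degree of freedom 65.2 to 527), so each library counts once.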

Additional observations from a re-analysis of the deposited data

How the results depend on the processing

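The falls of miR-8159-x and miR-11213-x kept their direction under all alternatives run, and their calls under each other scaling, filter and tool in which they were tested; miR-8159-x lies below the filter of 10 TPM. The number of late entries called was 2, and 0 to 4 with single libraries left out: 0 without WR replicate 2, YR replicate 1 or YR replicate 3 (8, 3 and 3 at an unadjusted p under 0.05 by edgeR), 1 without WR replicate 3, 2 without YR replicate 2 and 4 without WR replicate 1, which added both strands of miR-7132. Both strands also passed at 10 TPM; miR-7132-x passed with DESeq2 and without imprinted-cluster names, and miR-7132-y with limma. Of all entries, 44 were called, 16 at 10 TPM, 76 with DESeq2, 21 with 1 entry per distinct sequence, and 1 to 118 with single libraries left out. TMM called 18 higher and 26 lower, and library totals alone 1 and 29, with a median log2 fold change over all entries of -0.26 in place of -0.03. The labels do not say whether replicate numbers pair the libraries, and the values do not settle it. Deviations of same-numbered libraries correlated at 0.26, -0.104 and 0.27, and those of differently numbered ones at -0.378 to 0.143. With a replicate block edgeR called 0 late entries (6 had an unadjusted p under 0.05) and 2 of all. In that fit miR-8159-x and miR-11213-x had edgeR adjusted p of 0.0626 and 0.0688. DESeq2, without the block, called 3 late entries. With single libraries left out, the log2 fold change ran from -2.03 to 0.19 for miR-10174-x, -3.16 to 0.211 for miR-9277-z, -3.23 to 0.209 for miR-12034-z, -2.82 to 0.185 for miR-12273-x and -0.0538 to 0.225 for miR-10174-y, each turning sign without WR replicate 1. miR-10174-y also turned with library totals alone (-0.0681), at 10 TPM (-0.0417) and with limma at either pseudocount (-0.0694). The miR-9404 strand ratio differed by 0.783 to 1.3, and the summed share of counts by -0.165 to -0.0517 percentage points, with single libraries left out. The cause of these changes was not tested. With 1 read worth at least 0.101 TPM, entries below 1 TPM rest on fewer than 10 reads a library on average.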
